A study of Mus musculus with 6 samples.

Results

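Interferon-stimulated genes are the genes that a cell switches on when interferon binds its receptors, and 50 of them, named by gene symbol, were read here in endothelial cells (ECs) of the mouse kidney. Each symbol matched 1 of the 55401 genes in the deposited table, and 49 of the 50 had enough counts to be tested. RNA was sequenced from sorted kidney ECs, which carry CD31 and lack CD45, of 3 CTRL mice (Cre -/-; Rbpjf/f) and 3 RbpjΔEC mice (Cre +/-; Rbpjf/f), with 1 library per mouse. All were male and carried the floxed Rbpj allele on both chromosomes, and both groups received 5 doses of 1.5 mg tamoxifen at 8 weeks of age, with organ harvest 12 weeks later and an age of 21 weeks in the labels. In the Cre-positive mice the tamoxifen-activated recombinase CreERT2 is driven by the promoter of Cdh5, an endothelial cadherin gene, so that Rbpj, the transcription factor that carries Notch receptor signals to DNA, is the target in ECs only. The controls were Cre-negative littermates, so they had tamoxifen but no recombinase, and no library of untreated mice was part of the comparison. The comparison asks whether deletion of endothelial Rbpj came with another level of the interferon-stimulated genes in these cells.

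Type I interferons act through the receptor chains Ifnar1 and Ifnar2, and type II interferon acts through Ifngr1 and Ifngr2. The receptors activate JAK kinases and STAT factors. Stat2 and Irf9 are parts of the complex that binds the interferon-stimulated response element (ISRE), while type II interferon acts through the gamma-activated site (GAS). The genes they switch on block viral entry, degrade or hold back viral RNA, coat pathogen vacuoles with GTPases, or raise the response further. ECs line the blood and carry these receptors, and many of the genes have a resting level without infection.

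The promoter stretches below show ISRE or GAS matches before the start. They come from members whose groups were apart in the comparison and from the member with the highest level per exonic length. They are RefSeq sequence of GRCm38.p6, written 5′ to 3′ on the strand of the gene, with matches to the ISRE core (GAAANNGAAA, where N is any base) or the GAS core (TTCNNNGAA) in capitals. In Rsad2 the ISRE core is read on the opposite strand. Eif2ak2 also has an ISRE core 18 to 27 bases after the start, outside the printed stretch. Only members with a match before the start are printed. Of the others whose groups were apart, Oasl2, Sp100 and Xaf1 had neither core in their windows. Ifitm3 had matches only after the start, and no window was at hand for Gbp9, Mx2 and Zbp1.
Irf1 (chr11:53769898-53769957, plus strand, 116 to 57 bases before the start, GAS core): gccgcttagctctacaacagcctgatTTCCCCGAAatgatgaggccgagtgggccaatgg
Eif2ak2 (chr17:78882717-78882776, minus strand, 204 to 145 bases before the start, GAS core): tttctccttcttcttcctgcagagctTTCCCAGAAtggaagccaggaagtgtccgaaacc
Isg15 (chr4:156200856-156200915, minus strand, 97 to 38 bases before the start, 3 overlapping ISRE cores): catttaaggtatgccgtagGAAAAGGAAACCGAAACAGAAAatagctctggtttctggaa
Irgm2 (chr11:58214882-58214941, plus strand, 95 to 36 bases before the start, GAS core and ISRE core): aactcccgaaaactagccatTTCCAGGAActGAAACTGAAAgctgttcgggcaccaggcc
Ifitm2 (chr7:140955988-140956047, minus strand, 86 to 27 bases before the start, ISRE core): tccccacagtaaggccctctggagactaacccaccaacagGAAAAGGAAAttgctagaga
Rsad2 (chr12:26456538-26456597, minus strand, 145 to 86 bases before the start, ISRE core): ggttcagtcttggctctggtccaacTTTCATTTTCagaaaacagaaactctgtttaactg

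Promoter windows of 300 bases, 250 before and 50 after the start, were at hand for 37 of the 50 members. An ISRE core on either strand was found in 21 of the 37 (56.8%), against 3.99% of all 27025 genes with a window. A GAS core, whose letters read the same on both strands, was found in 13 (35.1%), against 9.55% of all genes. Of these 13, 6 were higher and 7 lower (median log2 fold change -0.03), and of the 23 tested without it 16 were higher and 7 lower (median 0.07). Both groups of genes, those that were higher and those that were lower, held such cores. Of the 20 tested members with an ISRE core 11 were higher in RbpjΔEC and 9 lower (median log2 fold change 0.02), and of the 16 without it 11 were higher and 5 lower (median 0.08). The short core to which RBPJ binds, TGGGAA on either strand, was found in 16 of the 37 members (43.2%) and in 28.3% of all genes. Among the 15 of these that were tested, 12 were higher and 3 lower (median 0.11), and among the 21 without it 10 were higher and 11 lower (median -0.0044). A match is a run of letters in the window and no measured binding.

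Counts were scaled to library size (CPM, the usual per-million unit) with edgeR's TMM factors, and levels of different genes are given per kb of exon. The ECs of the control mice already carried most of the family. Across all 6 libraries, 38 of the 50 members had a mean of 10 CPM per kb or more and 4 were under 1, with a median over the members of 27.0 CPM per kb. Rsad2, which makes an antiviral nucleotide, stood first at 311 ± 29.3 CPM per kb in CTRL (SD, n = 3) and 336 ± 36.0 in RbpjΔEC. Ifitm3, a membrane protein that blocks viral entry, was next with 282 ± 22.1 and 239 ± 9.03. In CTRL the spreads of these 2 genes overlapped, and Ifitm2 followed below both with 93.4 CPM per kb. Irf1, a transcription factor induced by interferon, had 63.8 CPM per kb in CTRL, below Bst2 (70.2) and Gbp2 (67.1), and 86.3 in RbpjΔEC. At the other end stood Mx1 (0.395 CPM per kb in CTRL), Ifitm1 (0.3004) and Ifi47 (0.206). Oas3 had 14, 1 and 3 counts in the controls and 1, 0 and 2 in the RbpjΔEC libraries, too few for the test.

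**Figure D1:**
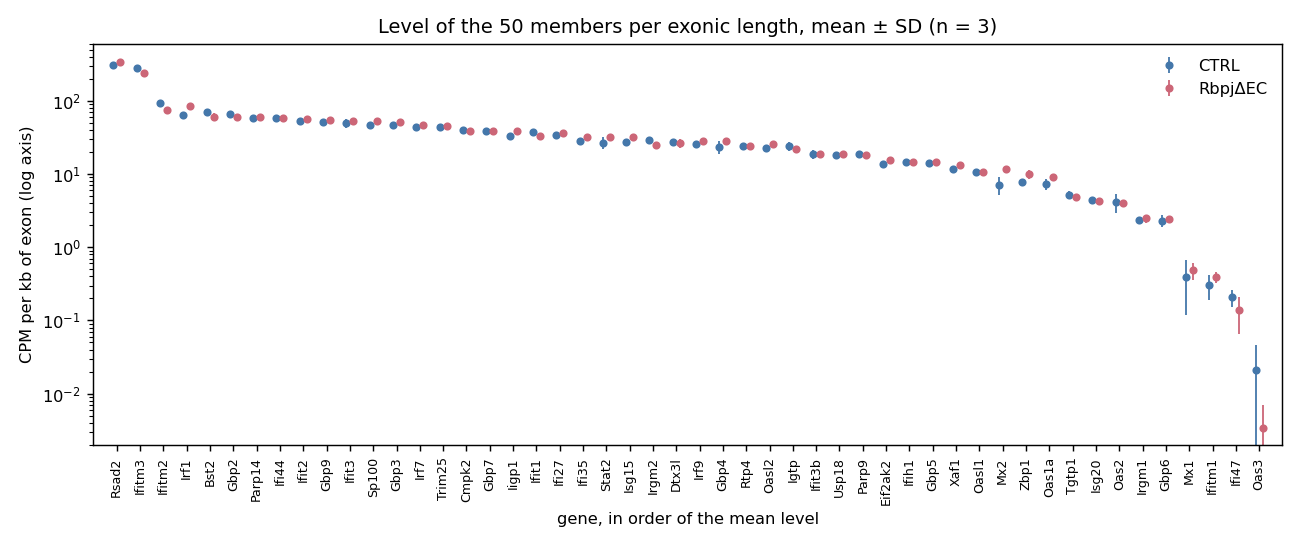
Mean CPM per kb of exon (log axis, bars show the SD, n = 3 mice per group) for the 50 members in order of their mean level, CTRL in blue and RbpjΔEC in red. Rsad2 and Ifitm3 stand above all others, 38 members are at 10 CPM per kb or more, and Oas3, whose SD in CTRL exceeds its mean, is last.

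The table held between 39649171 and 47726850 counts per library, so that 3 counts correspond to 0.0634 to 0.0749 CPM. The 2 groups were compared by the quasi-likelihood test of edgeR, p-values were adjusted by Benjamini-Hochberg over all 18438 tested genes, and 0.05 was the threshold. Rbpj itself had 28.1, 29.7 and 29.8 CPM in CTRL and 28.9, 26.1 and 29.6 in RbpjΔEC. These are counts over the whole gene. Their difference was within the spread between mice (log2 fold change -0.05, adjusted p = 0.793), and they do not show whether the floxed part was removed, so the groups below rest on the labels. Hey1, a textbook target of Notch and RBPJ, had 16.7, 19.9 and 22.6 CPM in CTRL and 11.5, 8.92 and 14.6 in RbpjΔEC, with no overlap (log2 fold change -0.76, SE 0.18, adjusted p = 0.0722). In CTRL 1 a count was found for 33764 genes and in each other library for 25629 to 26785.

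The sort was checked with marker lists. Of 12 endothelial markers, all were high, with a summed level of 26219 to 29056 CPM in CTRL and 23882 to 24646 in RbpjΔEC, and 10 of the 12 had a lower mean in RbpjΔEC with none past the threshold. The 14 leukocyte markers summed to 2.18 to 6.24 CPM in CTRL and 1.07 to 2.47 in RbpjΔEC, with Cd3e and Cd3d at 0 in every library. The 3 markers of plasmacytoid dendritic cells, the main blood source of type I interferon, summed to 0.224 CPM or less in every library. The 10 macrophage markers summed to 18.3 to 24.3 CPM in CTRL and 25.6 to 31.3 in RbpjΔEC, and 2 of the 6 tested passed the threshold in opposite directions, Cd68 upwards (log2 fold change 1.27) and Mrc1 downwards (-1.56). Cd68 alone carried the higher sum, 5 of the 6 tested macrophage markers had a lower mean in RbpjΔEC, and without Cd68 the sums were 6.00 to 17.3 CPM in CTRL and 3.22 to 6.19 in RbpjΔEC. The 9 mural markers summed to 85.3 to 112 CPM in CTRL and 35.1 to 56.9 in RbpjΔEC, with all 8 tested lower and 3 past the threshold. The 8 tubule markers summed to 521 to 619 CPM in CTRL and 282 to 542 in RbpjΔEC, with no gene past the threshold. Of these 8, 3 were higher (Lrp2, Cubn and Slc34a1, each highest in RbpjΔEC 3). The other 5 were lower, with no overlap for Umod, Slc12a1 and Aqp2. Aqp1 alone gave 170 to 343 CPM of the sum in CTRL and 129 to 186 in RbpjΔEC. In bulk RNA, fewer cells of a type and less RNA per cell cannot be told apart, and the part of these lists in the results below was not tested.

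As a family the interferon-stimulated genes differed little between the genotypes. Of the 49 tested members 1, Irf1, was higher in RbpjΔEC past the threshold and none was lower, while 1.13% of all tested genes passed it. The median log2 fold change of the members was 0.06 (quartiles -0.03 and 0.18), beside 0.01 for all tested genes (quartiles -0.16 and 0.22). The members were higher in 33 and lower in 16 cases, that is 67.3% higher, against 51.1% of all tested genes, and with scaling by library size alone the shares were 77.6% (38 of 49) and 58.2%. At an unadjusted p under 0.05, 10 members were higher (20.4%, against 8.88% of all tested genes) and 4 were lower (8.16%, against 8.62%). The groups did not overlap, with all 3 RbpjΔEC libraries above all 3 CTRL libraries, in 9 members (18.4%, against 11.4% of all tested genes), and the reverse held in 3 (6.12%, against 11.6%). These shares describe the list and were not tested, since its genes respond to the same signals and are not independent.

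**Figure D2:**
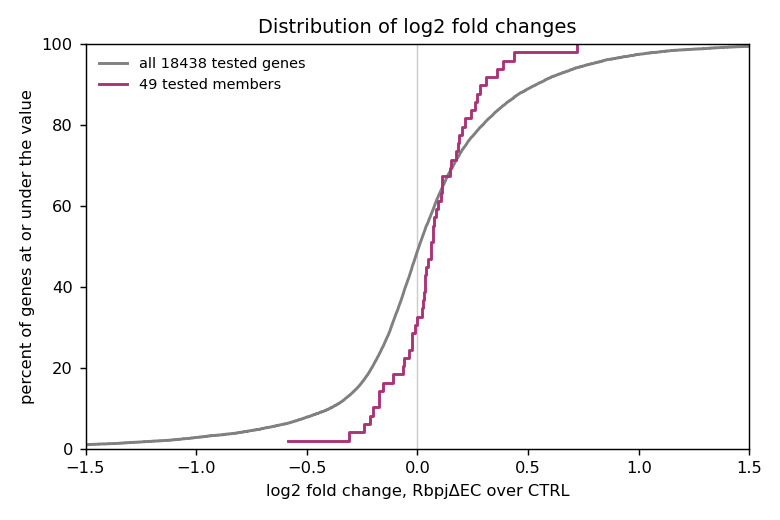
Cumulative share of genes (percent) by log2 fold change, RbpjΔEC over CTRL, for the 49 tested members and for all tested genes. The curve of the members is steeper and crosses zero at 32.7%, against 48.9% for all tested genes.

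The differences were also small in size. The absolute log2 fold change was under 0.25 in 39 of the 49 members, with a median of 0.11, and the SE had a median of 0.0845. For 41 members the 95% interval lay within 0.5 of zero on the log2 scale, and for 45 it lay within 1. The 4 with a wider interval were Mx2, whose interval was above zero from 0.32 to 1.12, and the low-level genes Mx1, Ifitm1 and Ifi47.

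The level of the family as a whole was also compared mouse by mouse. The median deviation of the members from the CTRL mean of log2 CPM was -0.07, 0.07 and 0.03 in the CTRL mice, in order of their numbers, and 0.01, 0.14 and 0.05 in the RbpjΔEC mice, so that the groups overlapped. CTRL 1 was the lowest of the 6 libraries for 25 of the 49 tested members, and RbpjΔEC 2 was the highest for 18. The summed level was 6680, 7008 and 7115 CPM in CTRL and 7178, 7706 and 7202 in RbpjΔEC. That sum did not overlap between the groups, but without Rsad2, which alone gave 1227 to 1601 CPM of it, the sums were 5337 to 5781 in CTRL and 5701 to 6105 in RbpjΔEC and overlapped. Without CTRL 1 the median log2 fold change of the members fell to 0.02, with 28 higher and 21 lower. Of these, 3 and 4 had an unadjusted p under 0.05, beside 6.16% and 5.84% of all tested genes, so that the higher share was near the background. The count of 10 higher at that p was 4 without RbpjΔEC 2 (7.52% of all tested genes), 5 without RbpjΔEC 3 (8.19%), 7 without CTRL 3 (6.49%), 8 without RbpjΔEC 1 (6.14%) and 12 without CTRL 2 (10.5%).

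**Figure D3:**
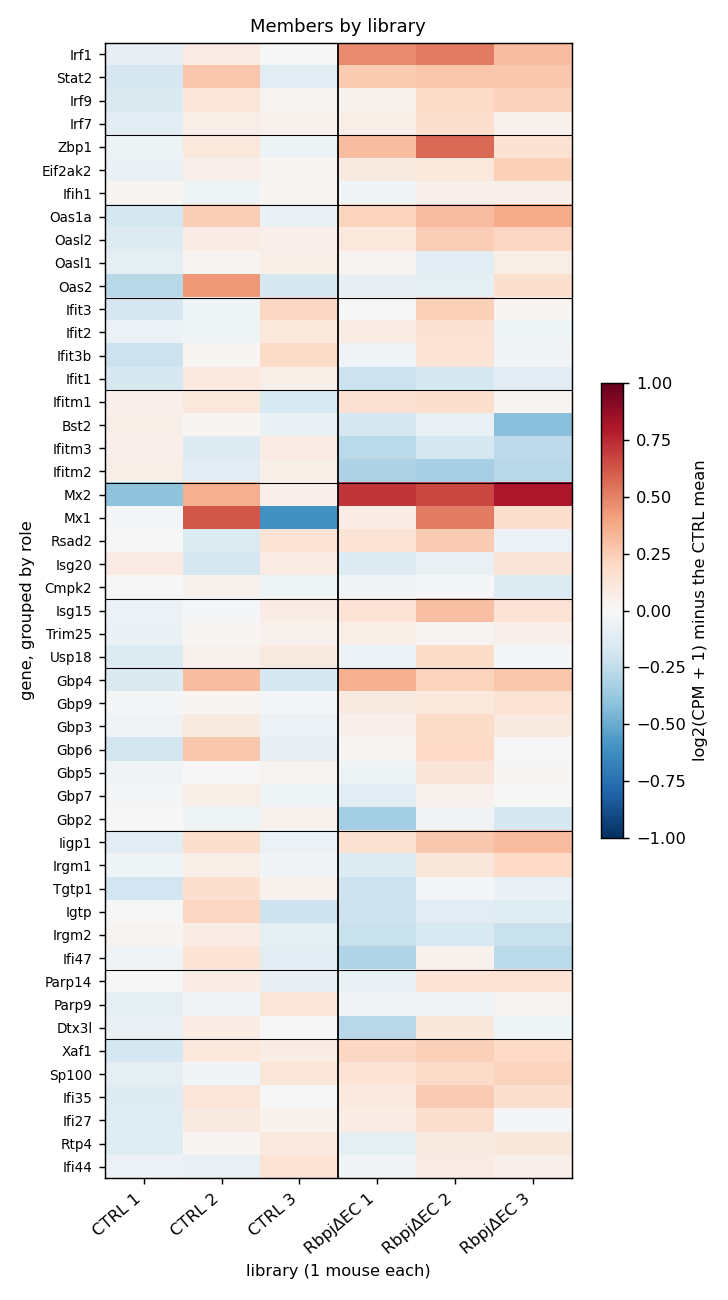
Heat map of log2(CPM + 1) minus the CTRL mean for the 49 tested members (rows, grouped by role) in the 6 libraries (columns, 1 mouse each), red above and blue below. Irf1 and Mx2 are red in all 3 RbpjΔEC libraries, Ifitm2 and Ifitm3 are blue in all 3, and CTRL 1 is blue for most members.

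The signal transducers are the factors that carry the interferon signal to DNA, and all 4 had a higher mean in RbpjΔEC. Irf1, interferon regulatory factor 1, is induced by interferon and also by other inflammatory signals. It had 240.1, 269 and 252 CPM in CTRL and 352, 363 and 315 in RbpjΔEC. All 3 RbpjΔEC mice were above all 3 controls, by a log2 fold change of 0.44 (SE 0.077, 95% interval 0.27 to 0.60, adjusted p = 0.0246). That is 1.35-fold. The call held without CTRL 2 (adjusted p = 0.0169) or RbpjΔEC 3 (0.00668), but not without CTRL 1 (0.110), CTRL 3 (0.121), RbpjΔEC 1 (0.127) or RbpjΔEC 2 (0.0990), with a log2 fold change of 0.39 to 0.49 in each case. Outside the family, 2 early-response genes chosen after their values were seen were higher past the threshold in the same libraries, Egr1 with a mean of 539 CPM in CTRL and 854 in RbpjΔEC (log2 fold change 0.66, adjusted p = 0.00649) and Fos with 466 and 641 (0.46, adjusted p = 0.0398). The other genes of their families are not given here, and 1.13% of all tested genes passed the threshold. The part of Egr1 and Fos in the level of Irf1 was not tested.

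Stat2, which binds DNA together with Irf9, had 141, 192 and 147 CPM in CTRL and 190.7, 192 and 191 in RbpjΔEC. The 3 RbpjΔEC mice had an SD of 0.860 CPM, while CTRL 2 stood at their level and the other 2 controls below it (log2 fold change 0.26, SE 0.11, adjusted p = 0.241). Without CTRL 2 the value was 0.41 (adjusted p = 0.0142), and without CTRL 1 it was 0.17 (0.551). Irf9, the DNA-binding part of that complex, had 123, 148 and 139.5 CPM in CTRL and 139.9, 156 and 161 in RbpjΔEC (0.15, adjusted p = 0.375, and 0.08 without CTRL 1). Irf7, the factor that drives most type I interferon genes, had 152, 172 and 169 CPM in CTRL and 172, 184 and 169 in RbpjΔEC (0.09, adjusted p = 0.544). The groups overlapped in these 3 genes.

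Among the 3 sensors and kinases of nucleic acids, Zbp1 and Eif2ak2 had groups that did not overlap. Zbp1 senses Z-form nucleic acid and can trigger cell death. It had 26.4, 29.6 and 26.4 CPM in CTRL and 34.2, 41.1 and 30.4 in RbpjΔEC. The lowest RbpjΔEC mouse was just above the highest control (log2 fold change 0.36, SE 0.11, adjusted p = 0.130). Eif2ak2, the kinase PKR that stops translation when it binds double-stranded RNA, had 67.5, 73.3 and 72.1 CPM in CTRL and 75.7, 76.2 and 83.7 in RbpjΔEC. That is a log2 fold change of 0.15 (SE 0.073, adjusted p = 0.324). Ifih1, the RNA sensor MDA5, had 114 to 120 CPM in CTRL and 116 to 122 in RbpjΔEC, with an overlap and a 95% interval within 0.5 of zero.

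Active enzymes of the OAS family make the short nucleotide that turns on RNase L. None of the 4 tested genes passed the threshold. Oasl2 was the most abundant, with 132, 152 and 149.6 CPM in CTRL and 155, 171 and 167 in RbpjΔEC. Its groups did not overlap (log2 fold change 0.19, SE 0.075, adjusted p = 0.227). Oas1a had 12.0, 16.4 and 13.1 CPM in CTRL and 16.2, 17.3 and 18.0 in RbpjΔEC, where CTRL 2 overlapped with the RbpjΔEC mice (0.31, SE 0.13, adjusted p = 0.235). Oas1a shares 64.4% of its 38-base stretches with Oas1g, so reads can be split between them and its level is uncertain. Oas1g had 197, 396 and 221 counts in CTRL and 289, 310 and 352 in RbpjΔEC (0.29, adjusted p = 0.526). Oas2 and Oasl1 had log2 fold changes of -0.04 and -0.0044, and CTRL 2 was the highest of all 6 libraries for Oas2 with 24.6 CPM, against 14.7 to 20.2 in the others.

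The 4 IFIT genes encode antiviral proteins of a family that holds back viral translation, and their groups overlapped in all 4 genes. Ifit2, the most abundant, had 201, 203 and 226 CPM in CTRL and 220.4, 233 and 204 in RbpjΔEC (log2 fold change 0.06, SE 0.076, adjusted p = 0.724). Ifit1 went the other way, with 89.8, 107 and 104 CPM in CTRL and 86.1, 88.7 and 92.6 in RbpjΔEC. Only RbpjΔEC 3 overlapped with CTRL 1 (-0.17, SE 0.080, adjusted p = 0.286). Ifit3 (0.08) and Ifit3b (0.02) share 57.3% of the 38-base stretches of Ifit3 and cannot be fully told apart by counts.

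The membrane restriction factors were the role group with the lowest median, a log2 fold change of -0.23, and 3 of its 4 genes were lower at an unadjusted p under 0.05, beside 8.62% of all tested genes. The group was singled out by its values. Ifitm2 and Ifitm3 sit in the membranes through which viruses enter the cell. Ifitm2 had 63.6, 56.4 and 63.5 CPM in CTRL and 49.2, 48.4 and 50.2 in RbpjΔEC. All 3 RbpjΔEC mice were below all 3 controls (log2 fold change -0.31, SE 0.076, 95% interval -0.48 to -0.15), and the adjusted p was 0.0733. Ifitm2 overlaps a longer gene model on the same strand, Gm45717, over 40.9% of its exonic bases, and that model had 1 count in all 6 libraries together. In all, 52.6% of the 38-base stretches of Ifitm2 are shared with other genes, so that its level is uncertain. Ifitm3 had 198, 174 and 202 CPM in CTRL and 158, 169 and 159 in RbpjΔEC, again with no overlap (-0.24, SE 0.074, adjusted p = 0.130).

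Bst2, or tetherin, holds new virus particles at the cell surface. It had 66.0, 64.2 and 60.0 CPM in CTRL and 56.4, 60.1 and 47.2 in RbpjΔEC, where RbpjΔEC 2 overlapped with CTRL 3 (-0.22, SE 0.093, adjusted p = 0.249). Without RbpjΔEC 3 the value was -0.12. Of the 12 endothelial markers 10 had a lower mean in RbpjΔEC (log2 fold change -0.50 for Ehd3 to 0.22 for Egfl7, median -0.18), and their part in the level of these membrane genes was not tested. Ifitm1 had 8 to 21 counts per library, too few to resolve its log2 fold change of 0.39 (SE 0.51, 95% interval -0.72 to 1.50).

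Among the Mx and other antiviral effectors Mx2 had the largest log2 fold change of all members. Mx2 belongs to the family of dynamin-like antiviral GTPases, and the annotation of this reference lists it as a polymorphic pseudogene, the only member that is not listed as protein-coding. It had 18.7, 32.3 and 26.1 CPM in CTRL and 41.8, 40.5 and 44.6 in RbpjΔEC. The RbpjΔEC mice were close to each other and all above the controls, which spread widely, so that a log2 fold change of 0.72 (SE 0.17) reached an adjusted p of 0.0923 with edgeR. Without CTRL 1 the value was 0.53. DESeq2 called it (adjusted p = 0.00106), and over all alternatives the adjusted p ran from 3.0e-10, without the low-count filter, to 0.266, without RbpjΔEC 1. Mx1, the nuclear counterpart, had 1.32, 2.62 and 0.545 CPM in CTRL and 1.47, 2.36 and 1.65 in RbpjΔEC and could not be resolved (0.28, SE 0.48).

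Rsad2 had 1342, 1227 and 1480 CPM in CTRL and 1476, 1601 and 1291 in RbpjΔEC. The most abundant member overlapped between the genotypes (log2 fold change 0.11, SE 0.097, 95% interval -0.10 to 0.32, adjusted p = 0.595). With a library left out, its value ran from 0.04 without RbpjΔEC 2 to 0.19 without RbpjΔEC 3. Cmpk2, the genomic neighbour of Rsad2 that feeds it with nucleotides, had a log2 fold change of -0.06 (adjusted p = 0.672). Isg20, an exonuclease that degrades RNA, had -0.03 (adjusted p = 0.949).

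Isg15 is a ubiquitin-like protein that is attached to other proteins, Trim25 acts as a ligase, and Usp18 removes Isg15 and dampens the receptor. Isg15 had 20.0, 20.6 and 22.0 CPM in CTRL and 23.0, 25.8 and 23.0 in RbpjΔEC. Its groups did not overlap, and the log2 fold change of 0.20 (SE 0.094) had an adjusted p of 0.295. Trim25 had 241, 256 and 259.6 CPM in CTRL and 264, 257 and 262 in RbpjΔEC, with RbpjΔEC 2 inside the range of the controls (0.05, SE 0.065, adjusted p = 0.740). Usp18 had a log2 fold change of 0.04 (adjusted p = 0.862).

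The guanylate-binding proteins, GTPases that attack pathogen vacuoles, and their relatives, the immunity-related GTPases, respond strongly to type II interferon. Of the 7 guanylate-binding protein genes 5 were higher and 2 lower, and no gene passed the threshold (median log2 fold change 0.06). Gbp9, the most abundant by CPM, had 262, 267 and 263 CPM in CTRL and 282, 284 and 291 in RbpjΔEC. The groups did not overlap, but the difference was small (0.11, SE 0.063, adjusted p = 0.378). Gbp4 had 157, 216 and 156 CPM in CTRL and 223, 203 and 211 in RbpjΔEC. Here too CTRL 2 lay among the RbpjΔEC mice (0.27, SE 0.12, adjusted p = 0.279), and the value was 0.43 (adjusted p = 0.0138) without it, and 0.19 without CTRL 1 (adjusted p = 0.587) or without CTRL 3 (0.571). Gbp2 (-0.18), Gbp3 (0.11), Gbp5 (0.03), Gbp6 (0.06) and Gbp7 (-0.03) had adjusted p-values of 0.286 to 0.879. Gbp6 shares 62.3% of its 38-base stretches with other genes, and its level is uncertain.

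The 6 immunity-related GTPases went in both directions, with 2 higher and 4 lower. Iigp1 had 177, 215 and 184 CPM in CTRL and 213, 231 and 237 in RbpjΔEC, so that CTRL 2 overlapped with RbpjΔEC 1 (log2 fold change 0.24, SE 0.084, adjusted p = 0.168). Irgm2, which restrains the other GTPases on the cell's own membranes, had 109, 113 and 99.8 CPM in CTRL and 91.3, 96.2 and 91.8 in RbpjΔEC. All 3 RbpjΔEC mice were below the controls (-0.20, SE 0.071, adjusted p = 0.168). Irgm1 (0.07), Igtp (-0.16) and Tgtp1 (-0.11) overlapped between the groups, and 91.6% of the 38-base stretches of Tgtp1 are shared with Tgtp2, so that its reads may be split. Ifi47 had the lowest log2 fold change of the family, -0.59, on 10 to 31 counts per library, with a 95% interval from -1.72 to 0.55.

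Parp9 and Dtx3l, which act together on histones and DNA damage, and Parp14, a relative that attaches ADP-ribose, had overlapping groups. Parp14 had 539.6, 568 and 509 CPM in CTRL and 514, 593 and 593 in RbpjΔEC (log2 fold change 0.07, SE 0.080, adjusted p = 0.683). Parp9 and Dtx3l had values of -0.01 and -0.06.

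All 6 of the other induced genes had a higher mean in RbpjΔEC, none past the threshold. Xaf1, a protein that promotes apoptosis, had 47.8, 58.5 and 57.1 CPM in CTRL and 62.9, 64.1 and 62.4 in RbpjΔEC. Sp100, a nuclear body protein, had 330.4, 346 and 383 CPM in CTRL and 388, 403 and 411 in RbpjΔEC. Neither gene overlapped between the groups, with log2 fold changes of 0.21 (SE 0.085, adjusted p = 0.224) and 0.18 (SE 0.074, adjusted p = 0.232). Ifi35 (0.17), Ifi27 (0.08), Rtp4 (0.04) and Ifi44 (0.03) overlapped, with adjusted p-values of 0.315 to 0.868.

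**Figure D4:**
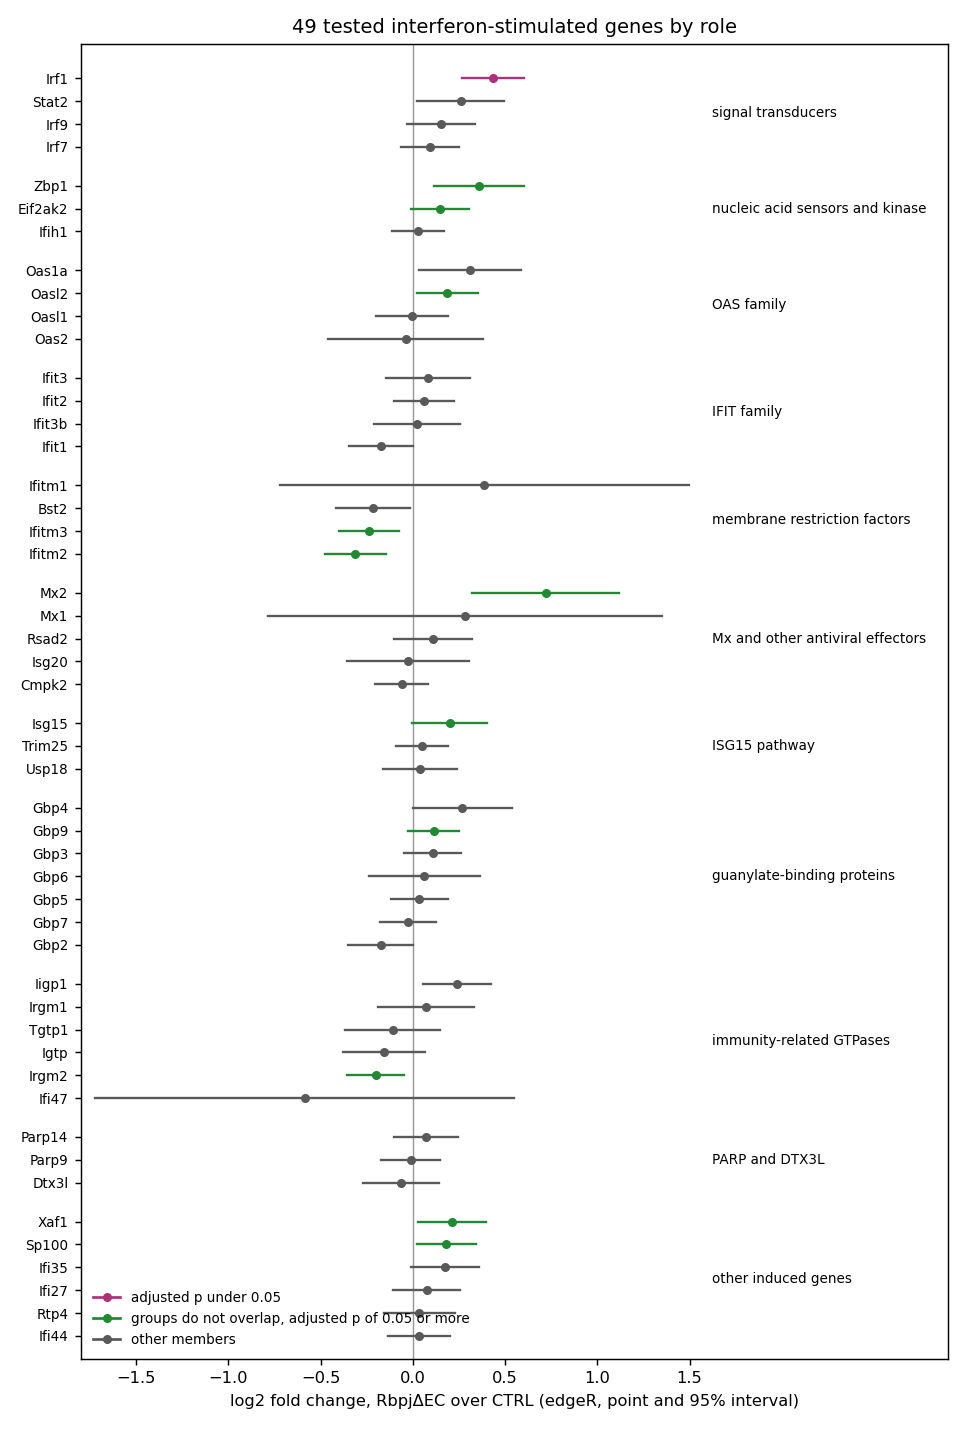
Log2 fold change, RbpjΔEC over CTRL, of the 49 tested members by role (point, edgeR estimate; line, 95% interval). Irf1, in purple, is the member past the threshold, Mx2 has the largest value at 0.72, and Ifitm2, Ifitm3 and Irgm2 lie below zero with groups that do not overlap.

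The other genes of the pathway, 64 that are not among the members, were read from the same fit. Of the 53 tested, 1 was higher past the threshold and none was lower, and an unadjusted p under 0.05 was reached by 12 higher genes and 2 lower ones (22.6% and 3.77%, beside 8.88% and 8.62% of all tested genes). Without CTRL 1 there were 10 and 0, beside 6.16% and 5.84% of all tested genes, and none passed the threshold. Without CTRL 2 there were 15 and 2 (10.5% and 10.6% of all tested genes), with 6 past the threshold (3.65% of all), and without RbpjΔEC 3, 3 passed it (2.73% of all). Their median log2 fold change was 0.06. Of the 10 interferon genes listed, 8 had no count in any library, which allows up to 3 counts, or 0.0749 CPM in the shallowest library. Ifna4 and Ifna5 had 0.200 and 0.0249 CPM in CTRL 1 and none elsewhere. None of these 10 was detected at this depth in RbpjΔEC, and other interferon genes were not read here.

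The genes of the type I receptor had overlapping groups and small differences. Ifnar1 had 169 to 178 CPM in CTRL and 162 to 177 in RbpjΔEC (log2 fold change -0.01, SE 0.066), and Ifnar2 had 188 to 203 CPM in CTRL and 188 to 198 in RbpjΔEC (-0.03, SE 0.065). The type II receptor genes Ifngr1 (-0.07) and Ifngr2 (0.13) overlapped as well. Ifnlr1, the receptor chain for type III interferon, had 5.01, 3.32 and 4.40 CPM in CTRL and 7.23, 8.22 and 5.76 in RbpjΔEC, with no overlap (0.74, SE 0.20, adjusted p = 0.100). Il10rb, the other chain of that receptor, had 192 to 203 CPM in CTRL and 169.8 to 189 in RbpjΔEC (-0.13, adjusted p = 0.328).

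Stat3, a factor shared with other cytokines, overlapped between the groups, with a log2 fold change of -0.04 (adjusted p = 0.772). Irf3, the factor that starts interferon production, had 59.7, 81.5 and 73.8 CPM in CTRL and 84.6, 94.1 and 86.4 in RbpjΔEC (0.30, adjusted p = 0.168). Irf8 had 36.4, 41.2 and 27.6 CPM in CTRL and 43.1, 48.6 and 45.2 in RbpjΔEC (0.38, adjusted p = 0.169). Neither gene overlapped between the groups. Irf5, a factor of myeloid cells, was at 2.84, 0.972 and 0.616 CPM in CTRL and 0.513, 0.667 and 0.549 in RbpjΔEC, and its value in CTRL 1 stood apart from the rest (-1.35, adjusted p = 0.218, and -0.47, adjusted p = 0.718, without CTRL 1).

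Socs1, an inhibitor of JAK kinases that interferon itself induces, was the gene outside the members that passed the threshold. It had 17.3, 26.4 and 19.9 CPM in CTRL and 35.5, 40.4 and 32.4 in RbpjΔEC. All RbpjΔEC mice were above the controls, by a log2 fold change of 0.77 (SE 0.15, adjusted p = 0.0468). With a library left out, Socs1 was called without CTRL 2 (0.00419) and without RbpjΔEC 3 (0.0234), and not without each of the other 4 (adjusted p up to 0.193), with a log2 fold change of 0.64 to 0.95 over the 6 fits. Its relative Socs3, a target of Stat3, had 147, 189 and 145 CPM in CTRL and 264, 256 and 184 in RbpjΔEC, where RbpjΔEC 3 overlapped with CTRL 2 (0.55, SE 0.16, adjusted p = 0.155). Socs3 was called with DESeq2 (adjusted p = 0.00546), without the low-count filter and without RbpjΔEC 3 (0.00805).

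**Figure D5:**
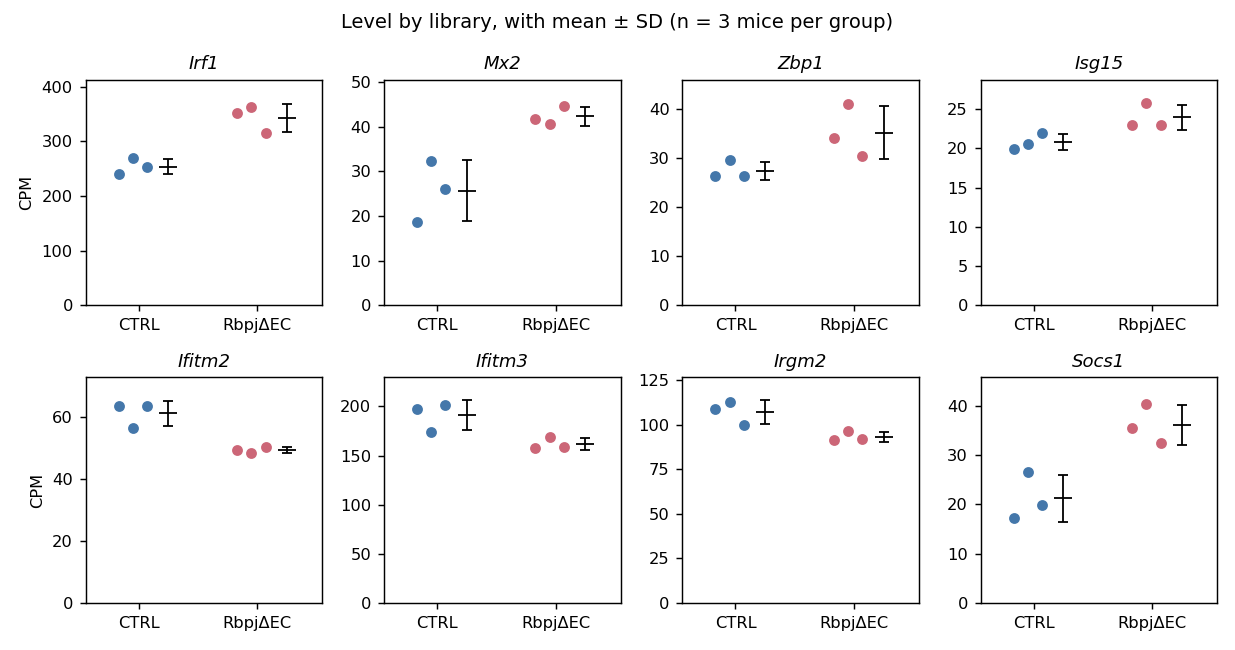
CPM by library (points) with mean ± SD (black, n = 3 mice per group) for 7 members and Socs1, each axis starting at 0. Irf1, Mx2, Zbp1, Isg15 and Socs1 lie higher in all RbpjΔEC libraries, and Ifitm2, Ifitm3 and Irgm2 lie lower in all of them.

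Of the sensors upstream of interferon, Myd88, an adaptor of Toll-like receptors, had 46.9, 53.1 and 44.6 CPM in CTRL and 55.9, 63.8 and 59.0 in RbpjΔEC (log2 fold change 0.31, SE 0.087, adjusted p = 0.106). Dhx58 (0.31), a helper of RNA sensors, and Sting1 (0.36), the adaptor for cytosolic DNA, were higher at an unadjusted p under 0.05, with adjusted p-values of 0.179 and 0.256. Tlr7, an RNA receptor of immune cells, was lower on few counts, at 0.253 to 1.15 CPM in CTRL and 0.0238 to 0.275 in RbpjΔEC (-2.26, adjusted p = 0.154, and -1.79, adjusted p = 0.427, without CTRL 1). Of the tested markers of immune cells, 5 of the 6 for macrophages and 1 of the 2 for leukocytes had a lower mean in RbpjΔEC. The log2 fold changes were -1.44 for Ptprc (adjusted p = 0.188), -1.57 for Csf1r (adjusted p = 0.134) and -1.56 for Mrc1 (adjusted p = 0.0261). Cd68 (1.27, adjusted p = 0.0154) and Cd79a (0.12, adjusted p = 0.930) went the other way. The macrophage sum without Cd68 was highest in CTRL 1, as Irf5 and Tlr7 were. The leukocyte sums overlapped between the groups, and the part of these markers in Tlr7 and Irf5 was not tested.

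Of 20 further induced genes 14 were higher and 6 lower. Ddx60, an RNA helicase, had 60.9, 74.3 and 72.8 CPM in CTRL and 88.1, 83.2 and 89.4 in RbpjΔEC (log2 fold change 0.33, SE 0.085, adjusted p = 0.0858). Herc6, the ligase for Isg15 in mice, had 83.5, 96.3 and 75.4 CPM in CTRL and 104, 100.1 and 119 in RbpjΔEC (0.34, adjusted p = 0.113). Cxcl10, a chemokine that draws T cells, had 5.74, 6.49 and 4.81 CPM in CTRL and 9.30, 8.77 and 7.51 in RbpjΔEC (0.59, SE 0.17, adjusted p = 0.103). The groups did not overlap in these 3 genes. Uba7, the activating enzyme for Isg15, had a log2 fold change of 0.39 (adjusted p = 0.189), with an overlap between CTRL 2 and RbpjΔEC 3.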

How the data were processed

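Whole-number counts per gene, not normalized, were deposited by the authors for the 6 libraries. According to the labels and the study's methods, stranded total RNA libraries from sorted cells were trimmed with Trim Galore 0.6.4, aligned to GRCm38 with STAR 2.6.1d and counted with featureCounts (Subread 1.6.4). edgeR 4.0.16 in R 4.3.3 gave CPM with TMM factors, fold changes and p-values from these counts (filterByExpr, robust glmQLFit, glmQLFTest, genotype alone), adjusted by Benjamini-Hochberg over 18438 genes. SE was taken from the fold change and the F value. DESeq2 1.42.0, other scalings and filters, a replicate block and each library left out were alternatives. Exonic lengths, coordinates and shared 38-base stretches came from GENCODE M21 (50 of 50 members matched), promoters from RefSeq. The study counted on release M25, so levels per kb divide its counts by M21 lengths. Sums without Rsad2 or Cd68 and pathway fits without a library were added after seeing the data. The fits were tested on simulated data. The 95% intervals of fold changes come from that SE and cover the spread between mice, and the limit set by a count of 0 covers counting error only.

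The members and lists were chosen with earlier results of these data known. Values are given for members past the threshold, members whose groups do not overlap, the most abundant member and the member with the smallest p of each of 11 roles, the 3 largest rises and falls, members not tested, and pathway genes with an unadjusted p under 0.05 or that encode receptors or Stat3. Egr1 and Fos were added after their values were seen. P-values measure the spread between 3 mice per group. The result for 1 gene is left out of the text.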

Additional observations from a re-analysis of the deposited data

How the results depend on the processing

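The median log2 fold change of the members stayed above zero under every alternative, from 0.0155 without CTRL 1 to 0.104 with scaling by library size alone, where the median of all tested genes was 0.05. Members higher past the threshold numbered 6 without the low-count filter and 2 with DESeq2, beside 1 in the comparison reported, and 0 to 5 with a library left out, where 5 came without CTRL 2, 2 without RbpjΔEC 3 and 0 without each of the other 4. Those without the filter were Irf1, Mx2, Stat2, Zbp1, Gbp4 and Iigp1, and those without CTRL 2 were Irf1, Mx2, Stat2, Gbp4 and Iigp1. Zbp1 joined Irf1 without RbpjΔEC 3. Members lower past it numbered 1 without the filter and 0 to 2 with a library left out, 2 without CTRL 2 (Ifitm2 and Ifitm3). All genes past the threshold numbered 209 in the comparison reported, 1436 without the filter, 584 with DESeq2, and 21 to 700 with a library left out. With the replicate block 2 members were higher, Irf1 and Mx2, and 344 genes were called. Socs1 and Socs3 were called too. The deviations of same-numbered mice correlated at 0.0231, 0.00916 and 0.00544. Between CTRL and RbpjΔEC mice with different numbers the correlations ran from -0.0628 to 0.0480. These values gave no sign of pairing by number, and they cannot exclude it.

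The direction turned for 16 members, and the cause was not tested. With library size alone Oas2 was at 0.00181, Oasl1 at 0.0387, Isg20 at 0.0169, Gbp7 at 0.0159 and Parp9 at 0.0317. Oasl1 was at 0.00253 without the filter and at 0.000229 with a mean of at least 1 CPM. With a library left out, the values ranged from -0.0027 to 0.0523 for Ifih1, -0.181 to 0.220 for Oas2, -0.0541 to 0.0467 for Oasl1, -0.00282 to 0.193 for Ifit3, -0.0845 to 0.121 for Ifit3b, -0.116 to 0.964 for Mx1, -0.123 to 0.0335 for Isg20, -0.0397 to 0.0871 for Usp18, -0.0170 to 0.0739 for Gbp5, -0.0368 to 0.216 for Gbp6, -0.0616 to 0.0169 for Gbp7, -0.00774 to 0.166 for Irgm1, -0.0621 to 0.0483 for Parp9, -0.159 to 0.0351 for Dtx3l, -0.0135 to 0.101 for Ifi44 and -0.0278 to 0.0985 for Rtp4. Depth limits Oas3, Ifitm1 and Ifi47, with at most 31 counts in a library. Without CTRL 1 the log2 fold change fell to 0.17 for Stat2, 0.12 for Oasl2 and 0.12 for Xaf1, and without RbpjΔEC 2 to 0.23 for Zbp1.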
